A study of Mus musculus with 2 samples.

Results

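The cells described here are lung cells that carried messenger RNA of both Gpnmb and Fabp5 and little or none of Fn1, and that appear in the study's single-cell data under the working description of lipid-handling macrophages. A cell was taken when it held at least 3 unique molecular identifiers (UMIs, each standing for 1 captured RNA molecule) of Gpnmb, at least 5 of Fabp5 and fewer than 5 of Fn1. Of 4570 cells that passed the quality limits, 92 met this rule. The control pool gave 14 of its 1896 cells and the Tgfbr2-KO pool 78 of its 2674 cells. The cells were selected on their measured UMIs of Gpnmb, Fabp5 and Fn1, so the values of these genes below are descriptions.

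The study compared donor-derived lung monocytes and macrophages of chimeric mice whose transferred bone marrow was either Tgfbr2 fl/fl, the control, or LyzM-Cre Tgfbr2 fl/fl, named Tgfbr2-KO. The donors were CD45.1-CD45.2+, and the irradiated hosts were IM-DTR mice, which carried both CD45.1 and CD45.2 and lose their own interstitial macrophages when given the toxin. Cells of 5 mice were pooled for each genotype. Both genotypes carry the floxed Tgfbr2 gene, which encodes a receptor for TGF-beta, and LyzM-Cre removes floxed sequence in cells of the myeloid lineage, neutrophils included. All mice received 50 ng of diphtheria toxin 10 days before sacrifice. The sort took donor cells (CD45.2+ without CD45.1) of low side scatter that carried CD11b and the Fc receptor CD64. It left out cells with SiglecF, as on alveolar macrophages, or with Ly6G, as on neutrophils. Cells of a genotype carried 1 hashtag antibody, were mixed, and were read in 1 droplet-based 3′ library with a hashtag library from the same cells. Each genotype is thus 1 pool with no replicate. No test was made, every value describes these 2 pools, and cells are not replicates of a genotype. All intervals are 95% intervals that cover counting error only, and leave out differences between mice.

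Gpnmb encodes a glycoprotein of lysosomal and cell surface membranes, and its gene is a known target of the MiT/TFE transcription factors that control lysosome formation. Fabp5 and Fabp4 encode cytosolic carriers of fatty acids. Atp6v0d2 encodes a subunit of the proton pump that acidifies lysosomes, Ctsk the collagen-cleaving lysosomal protease cathepsin K, and Inhba the chain from which activin A, a ligand of the TGF-beta family, is built. Macrophages that take up lipid are known to express many of these genes, in fat tissue, in plaques and in lung.

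The only sequences that separate the 2 pools within the mixed library are the hashtag oligonucleotides, shown because every comparison by genotype rests on them.

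B0301, control: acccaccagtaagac
B0303, Tgfbr2-KO: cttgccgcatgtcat

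The median Gpnmb Fabp5 cell held 897 UMIs of its own hashtag in the control pool and 1902.5 in the Tgfbr2-KO pool, against 58.5 and 30.5 UMIs of the other hashtag. The lowest assignment probability among them was 0.999. Of the genes used for the rule, Gpnmb lies on mouse chromosome 6 (chr6:49036518-49058182, GRCm38.p6). Fabp5 (chr3:10012585-10016610), also in the rule, lies near its relative Fabp4 (chr3:10204342-10208616) on chromosome 3. Ctsk is at chr3:95499210-95509387, Atp6v0d2 at chr4:19876838-19922566 and Inhba at chr13:16004256-16031609. Of these 6 genes, RefSeq promoter windows of 300 bases were at hand for Gpnmb, Ctsk and Inhba, in build GRCm38.p6. Those of Gpnmb and Ctsk span the gene starts given above, whereas that of Inhba (chr13:16011601-16011900) lies inside the stated gene span and not at its start. The letters TCACGTG and TCATGTG, which the MiT/TFE family binds, were searched on both strands and stood in none of the 3 windows. They stood in 7.40% of 32851 promoter windows of the same length. The letters TGACTCA, bound by AP-1 factors, were searched after the sequence had been read, and were present in the Gpnmb window only, 8 bases past the first base of the gene. They were found in 5.20% of all windows. The 30 bases around them (chr6:49036514-49036543, plus strand) are printed with the motif in capitals, because they are the one match among the markers.

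Gpnmb: gccaggggcaagTGACTCAtgagcacgagt

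Gpnmb Fabp5 cells made up 0.738% of the control pool (exact Clopper-Pearson interval 0.404 to 1.24) and 2.92% of the Tgfbr2-KO pool (2.31 to 3.63), a ratio of 3.95. They were deeper than the rest. Their median total was 13236.5 UMIs against 7750.5 for the other control cells, and 19076.5 against 10145 for the other Tgfbr2-KO cells. A limit on raw UMIs is easier to meet for a deep cell, so the shares were also taken with every cell thinned to 5000 UMIs. Thinning left 3 of 1604 control cells (0.187%) and 54 of 2419 Tgfbr2-KO cells (2.23%). The same cells without thinning gave 0.873% and 3.22%. With limits per 10000 UMIs the shares were 0.475% and 2.39%. Dropping the Fn1 limit raised the control share to 1.90% and the Tgfbr2-KO share to 3.52%, which brought their ratio down to 1.85. The Tgfbr2-KO share was the larger under each of these ways of counting.

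**Figure D1:**
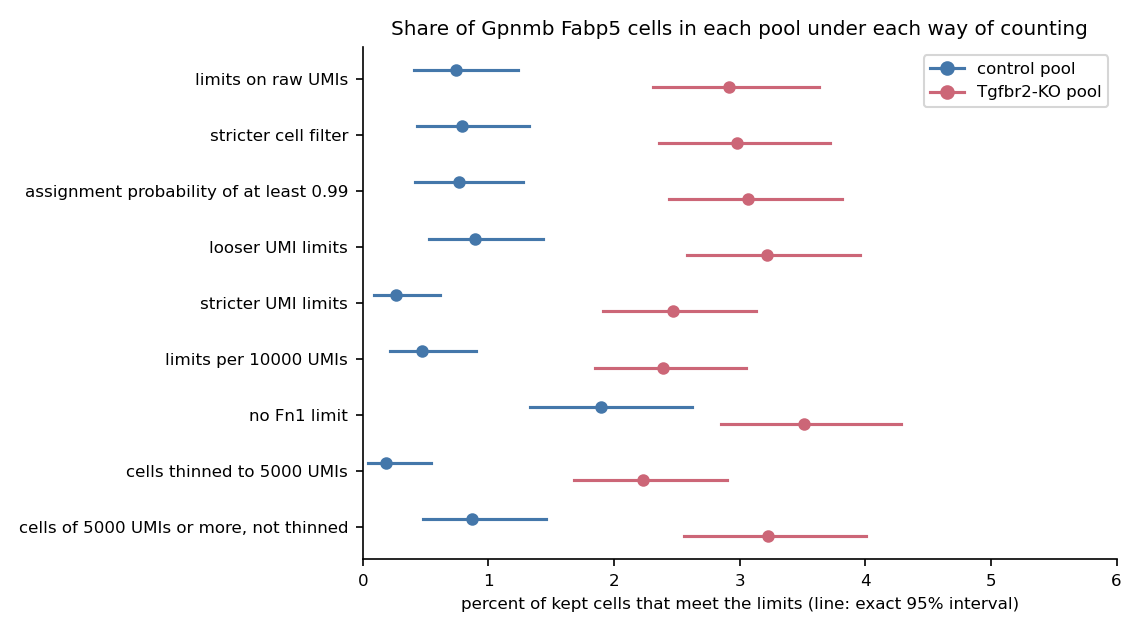
Percent of kept cells (x axis) that met the limits in the control pool (blue) and the Tgfbr2-KO pool (red), with exact 95% intervals as lines, for each way of counting (y axis). The Tgfbr2-KO value lies right of the control value in every row, and the gap is narrowest without the Fn1 limit (1.90% against 3.52%).

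Gpnmb in the control cells ran from 3 to 11 UMIs with a median of 5, and in the Tgfbr2-KO cells from 3 to 147 with a median of 17. Fabp5 ran from 5 to 33 UMIs with a median of 11 in the control cells, and from 5 to 564 with a median of 79.5 in the Tgfbr2-KO cells. The 2 pools overlapped in both genes, and the upper range was filled by Tgfbr2-KO cells alone. Just inside the Gpnmb limit, at 3 to 5 UMIs, lay 8 of the 14 control cells and 14 of the 78 Tgfbr2-KO cells. Just outside it, at 2 UMIs with the other limits met, lay 2 control and 6 Tgfbr2-KO cells, and a further 61 and 261 cells had 0 or 1 Gpnmb UMI. The Fn1 limit cut away 22 control cells but only 16 Tgfbr2-KO cells. Fn1 encodes fibronectin, and of those cut away, 18 control and 13 Tgfbr2-KO cells held 10 Fn1 UMIs or more. Among the cells taken, 11 of 14 and 67 of 78 had no Fn1 UMI.

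The rule took cells by their Gpnmb and Fabp5 UMIs, so the shares of both genes only describe the selection. The 78 Tgfbr2-KO cells held 5.09% of their pool's gene UMIs, 83.2% of its Gpnmb UMIs (interval 81.8 to 84.6) and 48.1% of its Fabp5 UMIs. Of genes outside the rule, they held 66.8% of the pool's Atp6v0d2 UMIs, 53.5% of Fabp4, 50.2% of Ctsk and 44.2% of Inhba. The 14 control cells held 1.21% of their pool's UMIs and 7.84% of its Atp6v0d2, 5.60% of its Ctsk, 1.67% of its Inhba and 0.862% of its Fabp4 UMIs. The last 2 rest on 1 UMI each. Of the genes in the rule, the control cells held 21.9% of their pool's Gpnmb UMIs and 7.86% of its Fabp5 UMIs. Free RNA in droplets can place UMIs in cells that do not express a gene. In 175 kept cells with at least 3 UMIs of the monocyte gene Ly6c2 and fewer than 2 of complement C1q, at a median of 10181 UMIs, Gpnmb had a UMI in 2.29%, Atp6v0d2 in 0.571%, Ctsk in 2.29% and Fabp4 in 3.43%. Inhba had a UMI in 15.4% of these monocyte-type cells and Fabp5 in 45.7%. Among the 175 cells, 2 met the Gpnmb and Fabp5 limits themselves. Without them Gpnmb had a UMI in 2 of 173 cells (1.16%), Ctsk in 1.73%, Fabp4 in 2.89%, Inhba in 26 cells and Atp6v0d2 in 0 cells.

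Levels are given next as UPM, the UMIs of a gene summed over the cells per 1e+06 of their gene UMIs. A single UMI is worth 5.06 UPM in the 14 control cells and 0.639 UPM in the 78 Tgfbr2-KO cells, so low values in the control group are coarse. A 0 was set to a floor of 3 UMIs for ratios, which are then bounds.

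The other 4 markers given for these cells were present in part of them. Atp6v0d2 had a UMI in 8 of 14 control cells, with 0 to 12 UMIs and a median of 1.5, and in 42 of 78 Tgfbr2-KO cells, with 0 to 78 UMIs and a median of 2. Its level was 182 UPM in the control cells against 26.3 in the other control cells, a ratio of 6.94 (4.79 to 9.76). In the Tgfbr2-KO pool it was 412 against 11.0 UPM, a ratio of 37.6 (32.8 to 43.1). At 5000 UMIs per cell it was detected in 42.9% of control and 46.2% of Tgfbr2-KO Gpnmb Fabp5 cells, against 4.40% and 2.01% of the others. Atp6v0d2 was higher in both pools, with and without the highest cell (control ratio without it 5.17).

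Ctsk differed between the pools in how it was spread. In the Tgfbr2-KO pool 51 of 78 cells had a UMI, with at most 49, and the level was 266 UPM against 14.2 in the other cells, a ratio of 18.8 (16.4 to 21.6). In the control pool 4 of 14 cells had a UMI and 1 cell held 25 of the 29 UMIs (86.2%). The control ratio was 4.83 (3.20 to 7.03) with that cell and 0.723 without it.

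Among the 92 cells, Fabp4 and Inhba were detected almost only in those of the Tgfbr2-KO pool. Fabp4 had 1 UMI in all 14 control cells, and 265 UMIs in 22 of the 78 Tgfbr2-KO cells, where it reached 38 per cell. Its level in the Tgfbr2-KO cells was 169 UPM against 7.89 in the others, a ratio of 21.5 (17.9 to 25.7). Inhba had 1 UMI in the control cells and 1821 in 45 Tgfbr2-KO cells, with at most 181 in a cell. Its level there was 1163 UPM against 78.8 in the others, a ratio of 14.8 (13.9 to 15.7). No control cell and 40 of 78 Tgfbr2-KO cells had 3 Inhba UMIs or more.

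Few cells held the whole set. Of the 4 markers outside the rule, all had a UMI in 11 Tgfbr2-KO cells and in no control cell, 3 had one in 24 and 1, and none had one in 17 and 4. Ctsk was found in 34 of the 40 Tgfbr2-KO cells with 3 or more Inhba UMIs and in 17 of the other 38, whereas Fabp4 was found in 11 of each group.

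**Figure D2:**
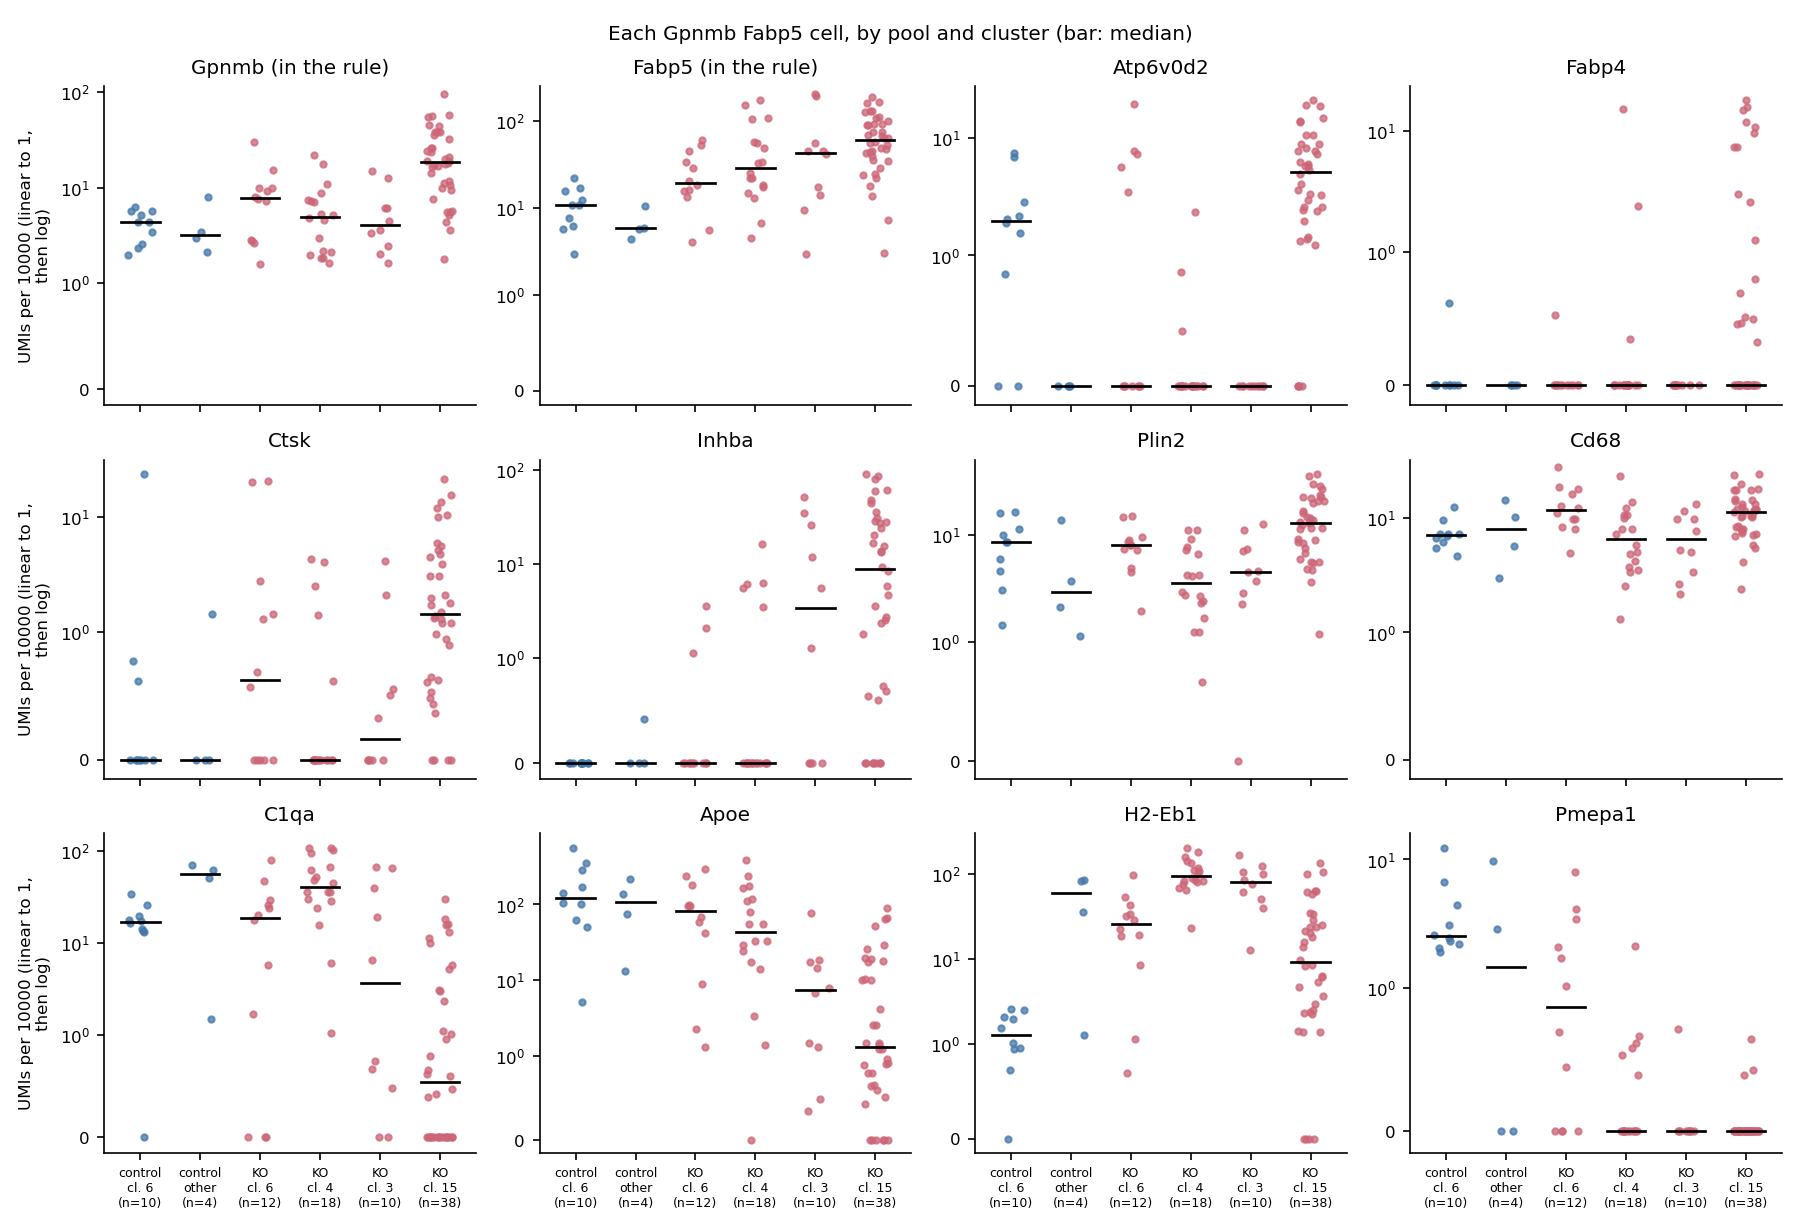
UMIs per 10000 of each Gpnmb Fabp5 cell (y axis, linear up to 1 and logarithmic above) for 12 genes, by pool and cluster (x axis, control in blue, Tgfbr2-KO in red, bars at the median). Inhba and Fabp4 lie at 0 in nearly all control cells, and most of the 38 Tgfbr2-KO cells of cluster 15 carry Atp6v0d2, Ctsk and Inhba.

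The cells were set against the other kept cells of their own pool over 1579 genes with enough UMIs in both pools. With a limit of 1.5-fold in both pools, 124 genes (7.85%) were higher in the Gpnmb Fabp5 cells and 151 genes (9.56%) were lower. A gene entered at 100 UPM in 1 of the 2 sets of cells, so one that is high in a single set could enter through that set alone. Over the 1155 genes that reached 100 UPM in both sets of both pools, 62 (5.37%) were higher and 73 (6.32%) lower. Each gene's highest cell was also left out, which weighs most on the set of 14 control cells. With the minimum applied again, the counts were then 74 and 215. The control ratios of Cd36, Cd68, Cd9, Ctsk, Grn, Lipa, Srxn1 and Tcirg1, among the genes named here, then no longer passed. Cd68 stood at 1.37, and Cd36 and Ctsk were lower still. With trimmed-mean scaling the counts were 76 and 199. The ratios were divided by factors whose log2 was 0.26 in the control pool and 0.03 in the Tgfbr2-KO pool, which lowered the ratios. The median log2 ratio over all 1579 genes was 0.09 in the control pool and -0.05 in the Tgfbr2-KO pool.

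Lysosomal genes led the higher genes. Ctsd, the lysosomal protease cathepsin D, ran from 3 to 125 UMIs in the control cells (median 51) and from 5 to 401 in the Tgfbr2-KO cells (median 45). Its level was 3913 UPM against 778 in the control pool, a ratio of 5.03 (4.67 to 5.41), and 3193 against 471 in the Tgfbr2-KO pool, a ratio of 6.78. Every one of the 92 cells carried Ctsd. Cathepsin L (Ctsl) was 2.94-fold and 3.84-fold higher, and the lysosomal phospholipase-family gene Pld3 2.94-fold and 5.00-fold. Of the list of 32 lysosome, proton pump and MiT/TFE genes, 21 were counted, 7 were higher in both pools and none lower. They were Atp6v0d2, Atp6v1b2, Lamp1, Ctsa, Hexa, Psap and Grn, of which the last 5 were among the 19 list members that reached 100 UPM in every set. Psap, the precursor of the saposins that help to break down sphingolipids, was 2.24-fold higher in the control pool and 2.57-fold in the Tgfbr2-KO pool. The list's median log2 ratio was 0.44 and 0.64.

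Of 23 genes of lipid uptake and storage only 6 had enough UMIs to be counted. The droplet genes Plin2 and Hilpda, the lipase gene Lipa and the uptake receptor gene Cd36 were higher in both pools, and Lpl and Acsl4 were not. Plin2, which coats lipid droplets, had 1 to 26 UMIs in the control cells and 0 to 74 in the Tgfbr2-KO cells. It was 2.32-fold higher (1.95 to 2.73) in the control pool and 3.90-fold (3.69 to 4.12) in the Tgfbr2-KO pool. Hilpda, an inhibitor of droplet lipolysis, was 2.90-fold and 4.07-fold higher, though 48.7% of its control UMIs came from 1 cell and the control ratio without it was 1.61. Lipa, the lysosomal acid lipase, was 1.70-fold and 2.19-fold higher. The scavenger receptor gene Cd36 was 1.88-fold and 1.57-fold higher, and its control ratio without the highest cell was 1.12. Of 6 counted genes of cholesterol export and its nuclear receptor targets, the exporter gene Abcg1 (3.89-fold and 2.34-fold) and Npc1 (2.44-fold and 2.67-fold), which moves cholesterol out of lysosomes, were higher. None of 17 genes of fatty acid oxidation and its PPAR regulators had enough UMIs in both pools. Lpl, lipoprotein lipase, was at ratios of 0.781 and 0.823.

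Genes described for lipid-associated macrophages showed the largest number of higher members. Of 22 listed genes 19 were counted, 11 were higher in both pools and none lower, with median log2 ratios of 0.96 and 1.12. Lgals3, which encodes galectin-3, ran from 13 to 96 UMIs in the control and from 19 to 546 in the Tgfbr2-KO cells, and was 2.34-fold (2.17 to 2.52) and 5.62-fold (5.51 to 5.73) higher. Trem2, a receptor for lipids, was found in all 14 control and in 63 of 78 Tgfbr2-KO cells. It was 1.97-fold and 2.57-fold higher. Cd9 and Cd63, both tetraspanins, were 1.61-fold and 1.94-fold higher in the control pool and 2.97-fold and 3.54-fold in the Tgfbr2-KO pool. Spp1, osteopontin, was 6.48-fold and 2.17-fold higher, with 61.6% of the control UMIs in 1 cell and a control ratio of 2.71 without it. Of 17 list members that reached 100 UPM in every set, 10 were higher. Of 4 counted genes known from osteoclasts, Ctsk, Acp5 and Tcirg1 were higher in both pools, but none of the 4 reached that level in every set. Acp5, tartrate-resistant acid phosphatase, was 2.86-fold and 2.45-fold higher.

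Further genes among the 15 with the highest ratios had varied functions. Anpep, aminopeptidase N, was 4.58-fold higher in the control pool and 5.30-fold in the Tgfbr2-KO pool, and was found in 11 of 14 and 67 of 78 cells. Vegfa, the vascular growth factor, was at 395 UPM against 80.9 in the control pool and 282 against 74.1 in the Tgfbr2-KO pool. The sphingomyelin synthase gene Sgms2 was 4.74-fold and 6.33-fold higher, the mitochondrial gene Chchd10 12.2-fold and 3.99-fold, and the glutathione transferase gene Mgst1 5.88-fold and 3.92-fold. Mmp19, a matrix metalloproteinase, was 2.87-fold and 8.86-fold higher. Rgcc was 3.59-fold and 7.58-fold higher, Vat1 3.19-fold and 6.42-fold, and the kinase gene Sgk1 3.95-fold and 2.96-fold. For Rgcc 55.1% of the control UMIs came from 1 cell, and the control ratio without it was 1.77.

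Some cytokine and antioxidant genes were also higher. Of 12 counted genes of growth factors and cytokines, Il1a, Il6, Vegfa and Osm were higher in both pools and Ccl2 was lower. Il1a was at 1124 UPM against 490 in the control pool and 764 against 131 in the Tgfbr2-KO pool. Il6 was 2.67-fold and 6.22-fold higher but was found in only 7 of 14 and 33 of 78 cells. Of 10 counted antioxidant genes, Srxn1, Prdx1 and Ftl1 were higher, and the metallothionein gene Mt1 was lower. Ftl1, the light chain of the iron store ferritin, was 1.63-fold and 1.90-fold higher. Aldoa and Pgam1 were higher of 10 counted genes of glycolysis and hypoxia. In these 3 lists 8, 8 and 6 genes reached 100 UPM in every set. Of them Il1a, Prdx1, Ftl1 and Aldoa were called higher and Ccl2 and Mt1 lower. Over all genes that reached it 5.37% were higher and 6.32% lower, so these few genes are no result about the lists. None of 5 counted genes of activin and TGF-beta signalling moved past 1.5-fold in both pools.

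Genes of MHC class II, which present antigen, were lower, as were some genes of classical monocytes. All 6 counted MHC class II genes were lower in both pools and reached 100 UPM in every set, with median log2 ratios of -2.46 and -1.11. H2-Eb1 was at 1296 UPM against 9634 in the control pool and 5023 against 11241 in the Tgfbr2-KO pool, which is 7.43-fold and 2.24-fold lower. Of 4 counted classical monocyte genes, Plac8, Ccr2 and S100a4 were lower and Ly6c2 was not. S100a4 alone reached 100 UPM in every set, so the others could enter the count through the sets where they are high. Of 8 patrolling monocyte genes 1 was counted and was not called. The monocyte chemokine receptor gene Ccr2 was 6.88-fold and 8.76-fold lower, and was found in 2 of 14 and 17 of 78 cells. F13a1 was 16.1-fold and 4.38-fold lower, though the control cells held 3 UMIs of it (ratio 0.0622, interval 0.0128 to 0.182). The lectin gene Mgl2 was 14.1-fold and 5.03-fold lower. Retnla, found in 0 control cells, was at least 12.6-fold lower there, and 9.48-fold lower in the Tgfbr2-KO pool, where 5 cells held it. Cxcl13 was 5.75-fold and 6.08-fold lower, and all 28 of its control UMIs lay in 1 cell. The heat shock genes Hspa1a and Hspa1b, Stmn1 and Ighm were 4.05-fold to 10.4-fold lower, with 2 control UMIs for Stmn1 (ratio 0.0958, interval 0.0116 to 0.347).

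**Figure D3:**
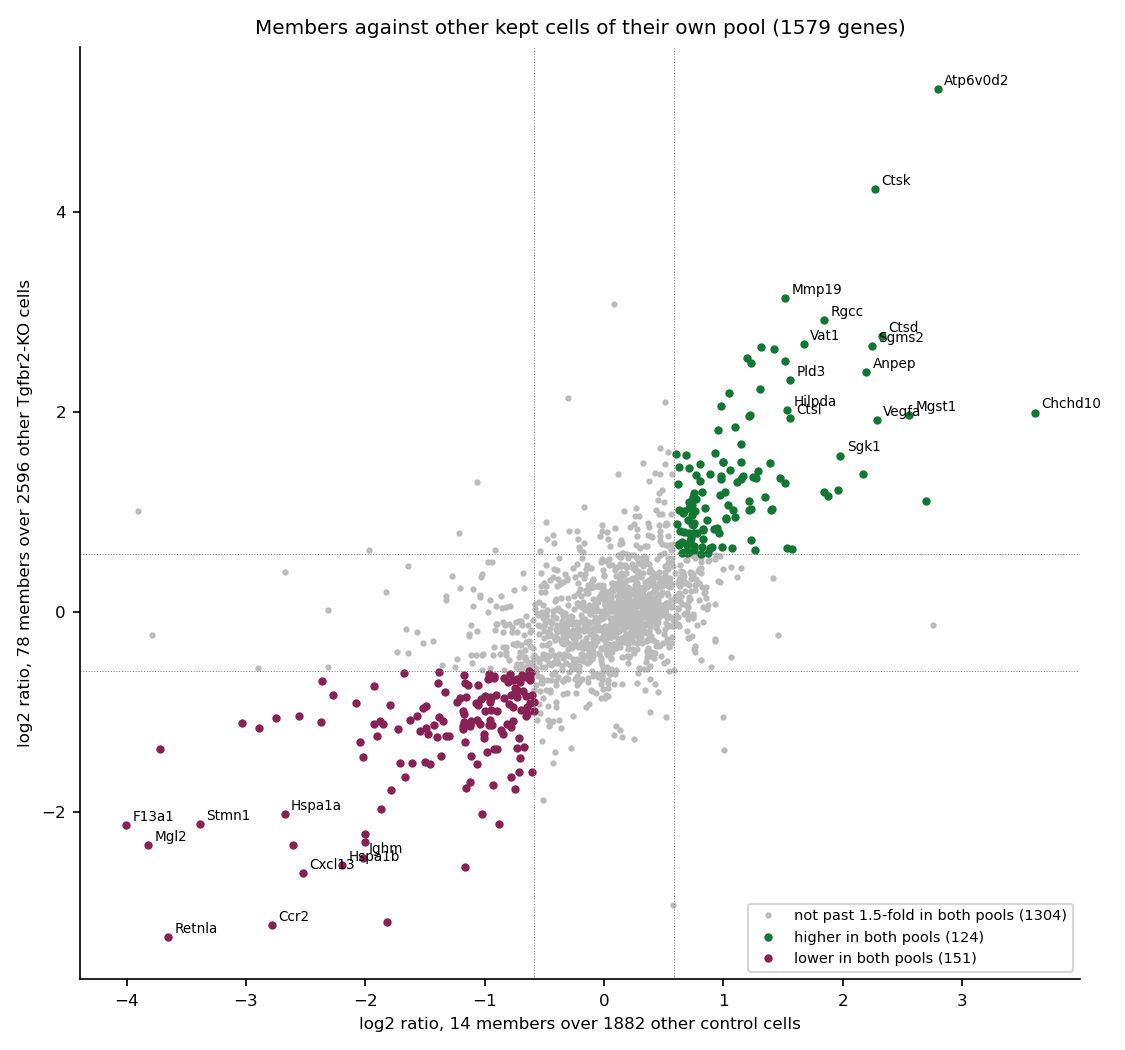
Log2 ratio of the Gpnmb Fabp5 cells over the other kept cells of the control pool (x axis) and of the Tgfbr2-KO pool (y axis) for 1579 genes, with the 1.5-fold limits as dotted lines. Green points are the 124 genes higher in both pools, with Atp6v0d2, Ctsk and Chchd10 outermost, and purple points the 151 lower ones, with Retnla, Ccr2 and Mgl2 outermost.

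The macrophage label was set beside markers that the rule had not used. Of 10 macrophage genes, Cd68 was 1.54-fold and 2.43-fold higher than in the other cells, and C1qa, C1qb and Csf1r were lower in both pools. C1qa was at 2592 and 1763 UPM, against 4654 and 4096 in the others. At least 5 C1q UMIs (C1qa, C1qb and C1qc summed) were found in 13 of 14 control and 55 of 78 Tgfbr2-KO cells, with medians of 47 and 34.5. The summed level of the 10 genes was lower than in the other cells, at 10302 and 8697 UPM against 17005 and 14493. Per cell it ran from 24.0 to 209 UMIs per 10000 in the control cells and from 11.9 to 314 in the Tgfbr2-KO cells. The medians were 81.6 and 64.4 against 182 and 163 in the others. All 92 cells thus carried RNA of these genes, at a lower summed level.

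Atp6v0d2, Fabp4 and Inhba are also known from alveolar macrophages, so a list of 16 genes of that cell type was read. Siglecf had 0 UMIs in the control cells and 4 in the Tgfbr2-KO cells, Marco had 0 and 1, and Ear1, Krt79, Car4, Fabp1 and Cidec had 0 in all 92 cells. The sort had left out cells with SiglecF, so the low Siglecf counts were partly set in advance. Of the listed genes that were detected, Pparg had a UMI in 9 of 14 control and 36 of 78 Tgfbr2-KO cells. In the other kept cells it had one in 27.2% and 34.0%. With cells thinned as above, the shares were 21.4% and 19.2%, against 18.2% and 22.9% of the others. Itgax was counted against the other cells but not called. The summed level of the 16 alveolar genes was 947 and 2029 UPM in the Gpnmb Fabp5 cells against 377 and 403 in the others, and Inhba alone gave 1163 of the 2029. Chil3 had 81 UMIs in 3 control cells, of which 82.7% lay in 1 cell, and 8 UMIs in the Tgfbr2-KO cells. Of 8 genes of T or NK cells 7 had no UMI, and Cdh5, Cldn5, Epcam, Sftpb, Cd79a and Ms4a1 had none. The genes of fibroblasts summed to 0 and 2.56 UPM, of endothelial cells to 5.06 and 13.4, of epithelial cells to 10.1 and 19.2 and of dendritic cells to 5.06 and 29.4. B or plasma cell genes summed to 40.5 and 35.8 UPM against 136 and 159 in the other cells. Neutrophil genes summed to 223 and 112 UPM against 158 and 290 in the others, patrolling monocyte genes to 709 and 340 against 469 and 423, and classical monocyte genes to 952 and 856 against 1224 and 2120. Markers of CD206+ interstitial macrophages summed to 359 and 689 UPM against 1603 and 1584, and those of the CD206- kind, which include MHC class II genes, to 8849 and 27684 against 52489 and 58257. Dissociation genes summed to 7498 and 7033 UPM against 9572 and 7610. The part of other cells' RNA in the levels above was not tested.

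The 78 Tgfbr2-KO cells were compared with the 14 control cells. Tgfbr2 itself was found in 8 of 14 control cells at 111 UPM and in 57 of 78 Tgfbr2-KO cells at 135 UPM. The library reads the 3′ end of transcripts and the labels do not say which stretch is floxed, so this level does not check the deletion. Of 1839 genes counted, 16.4% passed the 1.5-fold limit as higher in the Tgfbr2-KO cells, and 308 (16.7%) as lower. Here too a gene entered at 100 UPM in 1 pool, and of the 235 genes that reached it in the Tgfbr2-KO cells alone 160 were called higher. Over the 1340 genes that reached it in both pools, 142 (10.6%) were higher and 147 (11.0%) lower. Without the highest cell for each gene, and with the minimum applied again, the counts were 406 and 169. With trimmed-mean scaling the counts were 378 and 219. The ratios were divided by a factor whose log2 was -0.12, which raised the ratios. Only 14 cells stand on the control side, so single cells weigh on its sums.

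Of the named genes Pmepa1 had the lowest ratio, and other genes of TGF-beta signalling were lower too. Pmepa1, a TGF-beta target that restrains the pathway, had 0 to 23 UMIs in the control cells (median 3.5, 12 of 14 with a UMI) and 0 to 9 in the Tgfbr2-KO cells (median 0, 18 of 78 with a UMI). Its level was 420 UPM against 30.7, which is 13.7-fold lower in the Tgfbr2-KO cells. In the other kept cells it was 2.89-fold lower. Skil and Ski, repressors of SMAD proteins, were 3.26-fold and 2.92-fold lower, and the receptor gene Tgfbr1 1.73-fold. Of 9 counted genes of the activin and TGF-beta list these 4 were lower, and Inhba and Thbs1 were higher. The list's median log2 ratio was -0.27 in the Gpnmb Fabp5 cells and -0.23 in the other kept cells, so the list as a whole was alike in both. Of the 5 that reached 100 UPM in both pools, Skil and Tgfbr1 were lower and none was higher. Thbs1, whose product can activate TGF-beta, was at 311 UPM against 86.1, and its control value rested on 3 cells.

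Inhba had the highest ratio of the named genes, at 1163 UPM against 5.06. The ratio was 230 (41.2 to 9082) with a single control UMI. In the other kept cells Inhba was at 78.8 against 3.66 UPM, a ratio of 21.5. Fabp4, also with a single control UMI, was at a ratio of 33.4 (5.95 to 1326) in the Gpnmb Fabp5 cells and 1.10 in the others.

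Several genes induced by interferon had few or no UMIs in the control cells. Of 19 interferon response genes 10 were counted. Cxcl10 and Irf7 reached 100 UPM in both pools and were not called. The other 8 reached it in the Tgfbr2-KO cells alone, at 107 (Iigp1) to 629 UPM (Cxcl9), against 0 (Iigp1) to 30.4 UPM (Irf1) in the control cells. They entered the count through the pool where they are high, so their number is no result about the list. Cxcl9, a chemokine induced by interferon gamma, was at 629 UPM against 25.3, with all 5 control UMIs in 1 cell. Gbp2, a guanylate-binding protein gene, was 11.9-fold higher, from 4 control UMIs, and the antiviral gene Rsad2 9.57-fold, from 5. In the other kept cells Cxcl9, Gbp2 and Rsad2 were 36.7-fold, 15.7-fold and 7.06-fold higher. Acod1, which makes itaconate, was at 467 UPM in 56 of 78 cells against 25.3 UPM in 2 of 14. The acute phase gene Saa3 was found in 0 control cells and in 11 Tgfbr2-KO cells and was at least 14.1-fold higher. The coagulation factor gene F10 was at 341 UPM in 56 of 78 cells and in 0 control cells, at least 22.4-fold higher. Ccl8 was at 1282 against 45.6 UPM, Lyz1 at 1191 against 20.2 and Fcgr4 at 148 against 5.06, from a single control UMI. Oasl1 also had a single control UMI and was at 157 UPM in the Tgfbr2-KO cells (ratio 30.9, interval 5.50 to 1226), and the nonclassical MHC gene H2-M2 had 2 (ratio 20.5, interval 5.63 to 170). All 6 counted MHC class II genes reached 100 UPM in both pools and were higher in the Tgfbr2-KO cells, with a median log2 ratio of 1.60 against 0.22 over the other cells.

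Genes of cholesterol export were lower in the Tgfbr2-KO cells. Apoe, which carries lipid out of macrophages, ran from 6 to 1081 UMIs in the control cells with a median of 182, and from 0 to 733 with a median of 18.5 in the Tgfbr2-KO cells. Its level was 16630 against 3767 UPM. That is 4.41-fold lower (4.23 to 4.61), and 3.71-fold without the highest cell of each pool. The other kept cells showed a 2.18-fold lower level. Of 6 counted genes of cholesterol export 5 were lower, namely Abca1 (2.94-fold), Abcg1 (2.42-fold), Apoe, Pltp (2.25-fold) and Npc1 (1.61-fold, and 1.41-fold without the highest cell), and the list had a median log2 ratio of -1.22. The median over the other kept cells was -0.68. Of 12 counted genes of growth factors and cytokines, Igf1 and Osm were lower, Il1rn, Ccl3 and Ccl4 were higher and 7, among them Il1a, Il1b, Il6 and Tnf, did not pass 1.5-fold. Over all counted genes 16.7% were lower and 16.4% higher, so the list's count of lower genes was near that share. Igf1, insulin-like growth factor 1, was 6.22-fold lower, and the chemokine gene Ccl4 10.6-fold higher. The extracellular sulfatase gene Sulf2 was 5.59-fold lower. Ecm1 was 5.05-fold lower, the transferrin gene Trf 4.08-fold, B4galt1 3.91-fold and the platelet factor gene Pf4 3.51-fold. Atxn1 was 4.47-fold lower and 2.92-fold without the highest cell. Ckap2l and Peak1 were 4.39-fold and 4.27-fold lower, but 70.5% and 61.8% of their control UMIs lay in 1 cell, and both were 1.97-fold lower without the highest cell.

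The lipid-associated and lipid uptake lists held genes of both directions. Over all 1839 counted genes 16.4% were higher and 16.7% lower, so a list count near these shares is no result about the list. Of 20 counted lipid-associated genes 3 were higher in the Tgfbr2-KO cells (Lgals3, Ctsb and Lpl) and 8 were lower, among them Trem2 (2.72-fold), Spp1 (3.08-fold) and Cd9 (1.52-fold). Without the highest cell of each pool Trem2 was 2.49-fold lower, and Spp1 and Cd9 were 1.46-fold and 1.39-fold lower, which no longer passed. Of the 18 list members that reached 100 UPM in both pools 3 were higher (16.7%) and 6 lower (33.3%). Among all genes that reached it, 10.6% were higher and 11.0% lower. Of 23 counted lysosome genes 7 were higher, 6 of them encoding subunits or a partner of the proton pump (Atp6v0d2, Atp6v1a, Atp6v1b2, Atp6v1c1, Atp6v1e1 and Atp6ap2), with Psap as the other. Atp6v1c1 was 2.05-fold higher (1.38 to 3.17) and Atp6v1a 1.85-fold (1.35 to 2.59). In the other kept cells these 2 genes were at ratios of 0.855 and 0.801. Of 12 counted genes of lipid uptake and storage 5 were higher (Fabp4, Acsl1, Acsl4, Soat1 and Lpl), of which Lpl alone reached 100 UPM in both pools. Cd36 was 1.97-fold lower, and 1.23-fold without the highest cell. Of 13 counted genes of glycolysis and hypoxia 7 were higher, and of the 9 that reached 100 UPM in both pools Pgam1, Eno1 and Hif1a were. The list's median log2 ratio was 0.63 in the Gpnmb Fabp5 cells and 0.78 in the other kept cells.

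**Figure D4:**
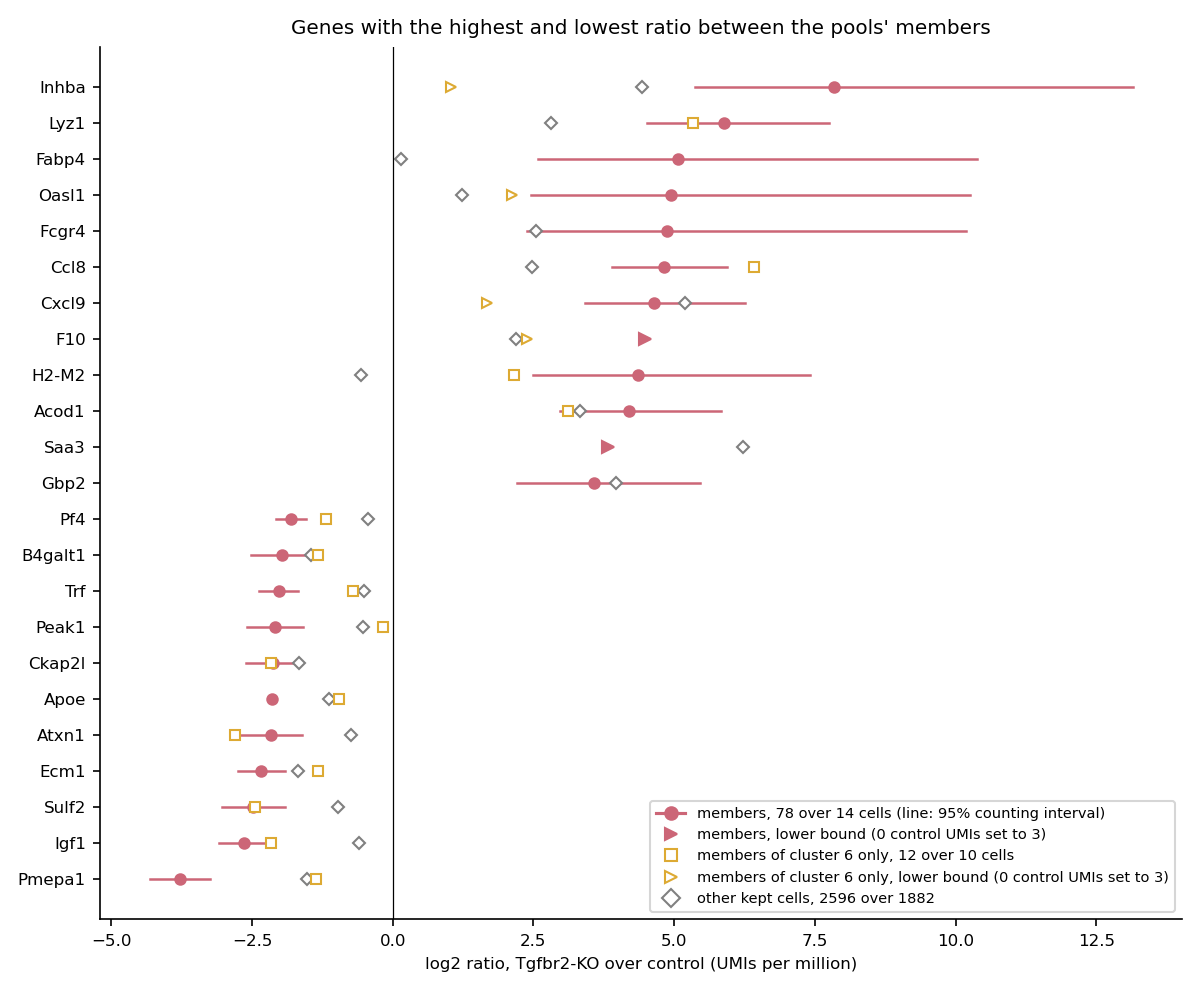
Log2 ratio of Tgfbr2-KO over control (x axis) for 23 genes (y axis) from both ends of the ranking of Gpnmb Fabp5 cells between pools. Red marks are all 92 cells with 95% counting intervals, orange marks the 22 cells of cluster 6, grey diamonds the other kept cells, and triangles lower bounds; Fabp4 and H2-M2 are far right in red and near 0 or left of it in the other cells, where Cxcl9 and Gbp2 are far right too.

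The 92 cells did not form 1 cluster. In a Leiden clustering of all kept cells, with both pools together, 10 of the 14 control cells and 12 Tgfbr2-KO cells fell into cluster 6, whose leading genes were Fn1, Il6, Pdpn, Ecm1 and Il1a. Cluster 15 held 38 of the 78 Tgfbr2-KO cells, and all 56 of its cells came from the Tgfbr2-KO pool. The remaining Tgfbr2-KO cells lay in cluster 4 (18 cells), led by Ccr7, Dnase1l3 and Cxcl9, and in cluster 3 (10 cells), led by Ly6i, Saa3 and Cxcl9. The other 4 control cells lay in clusters 0, 2 and 4. Clusters keep their numbers here, since they were built from the RNA levels of variable genes and are no test of any gene. At a lower resolution of 0.4, 64.1% of the Tgfbr2-KO cells shared 1 cluster.

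Cluster 15 held the cells with the most Gpnmb. Its 38 cells had a median of 35.5 Gpnmb and 120 Fabp5 UMIs, against 11 and 27 in the 12 Tgfbr2-KO cells of cluster 6, and 5.5 and 14.5 in the 10 control cells of cluster 6. Atp6v0d2 was found in 34 of the 38 cells at 698 UPM, Ctsk in 34 at 377 UPM, Inhba in 31 at 1827 UPM and Fabp4 in 18 at 273 UPM. Plin2 stood at 1416 UPM and Lgals3 at 10967 UPM. The metalloelastase gene Mmp12 was at 2434 UPM and the interleukin 7 receptor gene Il7r at 630 UPM. Apoe was at 1169 UPM and C1qa at 445 UPM there, and 22 of the 38 cells had 5 or more C1q UMIs.

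The cells of clusters 3 and 4 held less Gpnmb. Their median Gpnmb count was 6 and 7.5 UMIs and their median Fabp5 count 74 and 54.5. Atp6v0d2 was found in 0 of the 10 cells of cluster 3, which by counting allows up to 18.7 UPM, and in 3 of the 18 cells of cluster 4. The cluster 3 cells had Saa3 at 1646 UPM, Ly6i at 1128, the nitric oxide synthase gene Nos2 at 478 and the interferon-induced gene Iigp1 at 518. Inhba was at 1174 UPM in 6 of these 10 cells. The cluster 4 cells had Ccl8 at 3856 UPM, Cxcl9 at 1703 and H2-Eb1 at 9858, and 17 of 18 had 5 or more C1q UMIs.

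Cluster 6 allows the pools to be compared between cells of 1 cluster, 12 Tgfbr2-KO and 10 control. Under the same minimum counts, 60 genes were higher in the Tgfbr2-KO pool by 1.5-fold and 47 were lower. The Tgfbr2-KO cells of the cluster held 201787 gene UMIs and the control cells 137803, so fewer genes could reach the minimum than over all 92 cells. These counts therefore cannot be set against those over all 92 cells. Lyz1 was at 877 UPM against 21.8, Ccl8 at 1234 against 14.5 and Acod1 at 312 against 36.3, so they remained higher. H2-Eb1 was at 3325 against 145 UPM. Pmepa1 was at 159 against 406 UPM, a 2.56-fold difference where all 92 cells gave 13.7-fold. Apoe was at 10179 against 19680 UPM, which is 1.93-fold lower. Fabp4 had 1 UMI on each side, Saa3 had none, and Gbp2 was at 9.91 against 14.5 UPM, from 2 UMIs each. Inhba was at 44.6 against 0 UPM, at least 2.05-fold higher. Hilpda and Vegfa, which did not differ by 1.5-fold over all 92 cells, were 4.53-fold and 3.66-fold lower in the Tgfbr2-KO cells of cluster 6. The control cell with 38 of the 78 Hilpda UMIs lay in this cluster, and without the highest cell of each pool the values were 3.48-fold for Hilpda and 5.23-fold for Vegfa. Over all 92 cells Hilpda was at a ratio of 1.15, and of 1.94 without the highest cells.

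**Figure D5:**
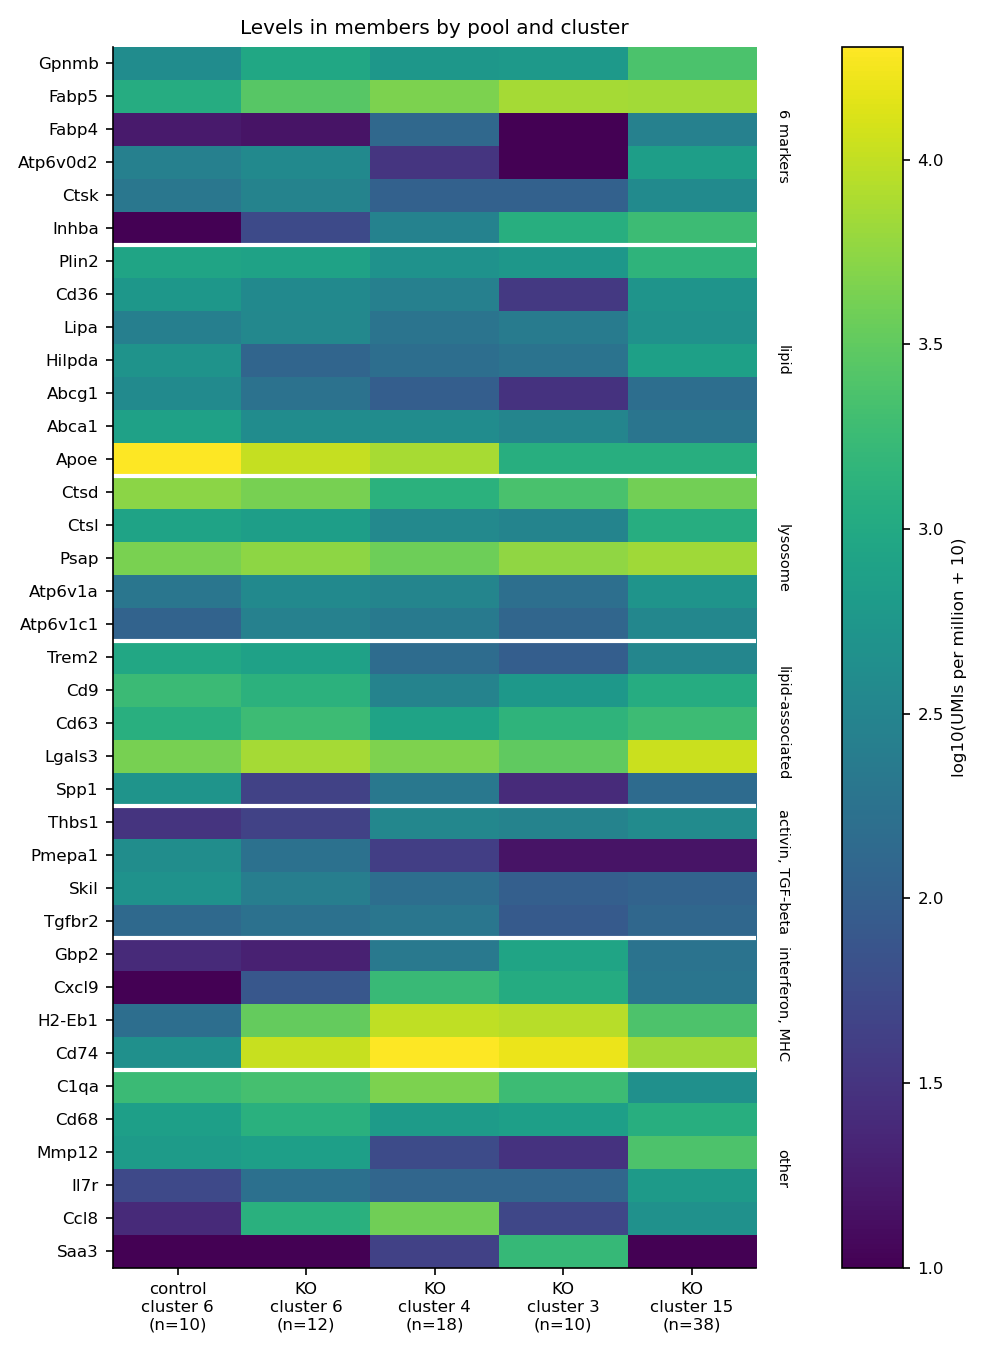
Level of 37 genes (y axis, in blocks by function) in the Gpnmb Fabp5 cells of each pool and cluster with at least 10 of them (x axis), as log10 of UPM plus 10. Atp6v0d2, Mmp12 and Fabp4 peak in cluster 15, Saa3 in cluster 3, Ccl8 and MHC class II genes in cluster 4, and Apoe and Pmepa1 in the control cells of cluster 6.

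The cells most like them were the 38 that met the Gpnmb and Fabp5 limits and held 5 Fn1 UMIs or more, 22 control and 16 Tgfbr2-KO. Of 898 genes with enough UMIs in both pools, 2 (0.223%) passed 1.5-fold as higher in the cells below the Fn1 limit, and 39 (4.34%) as lower. The higher ones were Odc1, which makes polyamines, and Antxr2, and both are named because they were the only such genes. Ctsk was lower in the cells below the Fn1 limit, at 147 against 444 UPM in the control pool and 266 against 423 in the Tgfbr2-KO pool. Lpl was at 132 against 290 UPM and 224 against 501, and Mitf, which encodes an MiT/TFE factor, at 273 against 491 and 228 against 374. Atp6v0d2 was at 182 against 269 UPM in the control pool and 412 against 188 in the Tgfbr2-KO pool, and Plin2 at 739 against 788 and 1013 against 692. Inhba was at 1163 against 628 UPM in the Tgfbr2-KO pool. Most of the 38 cells lay in cluster 6 in the control pool, 21 of 22, whereas 6 of the 16 Tgfbr2-KO cells lay there and 8 in cluster 15.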

How the data were processed

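Single-cell RNA of sorted lung cells was read in 1 library with hashtags for 2 pools of 5 mice each. Per the submitters' processing notes Cell Ranger 8.0 and Seurat 5.1.0 were used with the mouse build GRCm38. The deposited matrix holds UMI counts per gene and barcode, without normalization. Per the file headers, the authors' hashtag table gives the fraction of posterior probability per state, the assignment, and hashtag counts as log10 values. Coordinates come from the RefSeq gene table (GRCm38.p6).

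Barcodes assigned to 1 of 2 hashtags were kept from 1000 UMIs and 500 genes upwards, up to a mitochondrial share of 10%. Hashtag multiplets were left out; 2 of 95 met the rule. No doublet caller was used, and 102 doublets (2.18% of assigned cells) are expected within the hashtags. Total depth was 16298452 gene UMIs in the control and 30729204 in the Tgfbr2-KO pool.

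UMIs were summed over cells and scaled to UPM. Ratios have exact conditional binomial intervals and shares exact Clopper-Pearson intervals (scipy 1.17.1). A gene was counted at 100 summed UMIs and 100 UPM in 1 group, without Gpnmb, Fabp5 and Fn1, and called at 1.5-fold; list counts are also given over genes that reached 100 UPM in every group compared, a step added after seeing the data. Clusters used scanpy 1.11.5, 2000 variable genes, 30 components, 15 neighbours and a resolution of 0.8. The calculation was tested on simulated data. Named genes are list members, the 15 highest and 10 lowest ratios against other cells (ranked by the pool nearer 1) and the 12 highest and lowest between pools, without mitochondrial, ribosomal, sex-linked and predicted genes; some genes that this rule names are not reported here, and genes named from clusters were chosen after their values were seen. The members and lists were chosen with earlier results of these data known. Alternatives covered cell filters, assignment probability, limits, depth, scaling, weighting, fold and count minimum, and a C1q-positive reference.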

Additional observations from a re-analysis of the deposited data

How the results depend on the processing

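The larger Tgfbr2-KO share held in every alternative run. The control share was 0.264% under stricter limits, 1.90% with no Fn1 limit and 0.187% with cells thinned to 5000 UMIs, where the Tgfbr2-KO share was 2.23%. Genes higher and lower than in other cells numbered 51 and 63 at a limit of 2-fold and 212 and 246 with a minimum of 50 UMIs and 50 UPM. Counting only genes that reached 100 UPM in every group compared gave 62 and 73. Thinning gave 188 higher, trimmed-mean scaling 76, and leaving out each gene's highest cell 74. Between the pools' Gpnmb Fabp5 cells the counts higher and lower were 143 and 113 at 2-fold, 586 and 653 with the lower minimum, 142 and 147 for genes at 100 UPM in both pools and 132 and 54 after thinning. Without each gene's highest cell 169 were lower. Within cluster 6, where fewer genes could reach the minimum, the counts were 60 and 47. Against the cells with Fn1, higher and lower genes numbered 0 and 8 at 2-fold, 19 and 67 with the lower minimum, 6 and 12 under stricter limits, 1 and 14 with limits per 10000 UMIs and 0 and 0 after thinning. The higher ones were 12 under looser limits, 7 with trimmed-mean scaling, 9 with cells weighted equally and 6 without the highest cell. At a resolution of 0.4 the fullest cluster held 64.1% of the Tgfbr2-KO cells.

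Directions changed for few named genes. The control log2 ratio of Ctsk against other cells was -0.45 under stricter limits and -0.47 without its highest cell. Between the pools, limits per 10000 UMIs gave log2 ratios of 0.64 for Ckap2l, 0.29 for Peak1 and -0.00404 for Ctsk. Ctsk was at -0.22 with no Fn1 limit, and thinning gave -0.31 for Atp6v0d2 and -1.73 for Ctsk. Thinning left 3 control cells and the highest cell of Ctsk held most of its control UMIs; the cause of the other changes was not tested. No paired analysis was possible because each genotype is 1 pool. Depth limits the control side, where 14 cells held 197532 UMIs. The alternatives without each gene's highest cell, with 100 UPM in every group, within cluster 6, at other resolutions and for cells with Fn1 were chosen after seeing the data.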
